A study of Setaria viridis with 26 samples.

Results

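The meristem initiation and stem cell genes of *Setaria viridis* (green foxtail) were described by their places in a gene co-expression network of developing inflorescences. A gene was a member if the deposited Gene Ontology (GO) annotation gave it meristem initiation or stem cell development without a NOT mark, if it lacked vernalization response, and if it was in the network. These conditions left 233 of 25298 network genes. Of the 233 members, 165 carried meristem initiation, 77 carried stem cell development, and 9 carried both. Before the network condition, 264 genes carried a term, 8 of them were dropped for vernalization response, and 256 remained. The network held 91.0% of these 256 genes, against 66.0% of all 38334 annotated genes, so 23 annotated genes could not be placed.

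The series compared inflorescence primordia of *ful2* mutants at 9-10, 15, and 21 days after sowing (DAS) with primordia of wild-type A10.1 at 8-9, 10-11, and 17 DAS, with 4 poly-A RNA-seq libraries for each genotype and stage. The *ful2* (*brl1*) plants carry a loss-of-function allele of *SvFul2*, a MADS-box gene of the *AP1/FUL-like* group, in the A10.1 background, and 2 further samples were genomic DNA of the mutant. Each RNA library came from pooled, hand-dissected primordia, so a library averages over plants and over cell types. The authors built the network from wild-type primordia alone, those of this study without 1 library at 8-9 DAS and 1 at 17 DAS and those of an earlier study, and the tables used hold no value of a single library and no expression level.

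Shoot meristems hold a small group of stem cells that renew themselves while their descendants form organs, branches, and flowers. In Arabidopsis, KNOX homeobox proteins and their BELL partners keep meristem cells undifferentiated, CLAVATA-type receptors limit the stem cell population, and small RNA pathways with ARGONAUTE (AGO) proteins set where key meristem regulators act. In grass inflorescences, MADS-box and AP2-type factors are known for the passage of meristems to branch, spikelet, and floral fates.

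An edge of the network joined 2 genes that were co-expressed, directly or through shared partners, over the wild-type libraries. Its weight was a topological overlap, a score without unit. Only edges of at least 0.02 were listed, and the heaviest edge of the network was 0.393. A module was a group of co-expressed genes that the authors named by a color. The deposited network, used here, holds fewer genes and fewer modules than the paper reports. The network is 1 matrix over all its libraries, so no value below has a replicate error, no p-value is given, and a listed edge says nothing of direction or cause. Gene names followed by "best hit" rest on the reciprocal best Arabidopsis hit in the deposited annotation, which gave such a hit for 132 members. For 164 of the 233 members, neither of the terms that made them members was assigned through a best hit, so membership is a predicted annotation.

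The labelled tissue could not be checked by levels, and presence in the node list does not tell tissues apart, since 4 of 7 inflorescence genes chosen as markers are members themselves. Of these 7 genes, *SvKn1*, *SvRa2*, and *SvFea4* were in tan, *SvSid1*, *SvIds1*, and *SvYab15* were in magenta, and *SvFul2* was in brown. Photosystem genes, which mark green tissue, were in the network too (88.2% of those annotated for photosystem I and 93.1% for photosystem II), with 14 of 30 and 16 of 27 in red.

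The members were spread over 25 of 26 modules, and no member was in orange. Blue held 40 members, brown 35, tan 20, turquoise 19, and magenta 18. Beside module size, royalblue stood highest, with 7 members among its 195 genes (3.59%), followed by tan with 20 of 798 (2.51%) and midnightblue with 11 of 548 (2.01%). Blue held 17.2% of members and 10.5% of network genes, and brown held 15.0% of members and 9.53% of network genes. Turquoise, the largest module with 3909 genes, held 8.15% of members and 15.5% of network genes. Greenyellow held 1 member among 812 genes. Both terms were found in blue (25 members with meristem initiation and 17 with stem cell development) and in brown (23 and 13), whereas midnightblue held 10 members with meristem initiation and 1 with stem cell development.

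**Figure D1:**
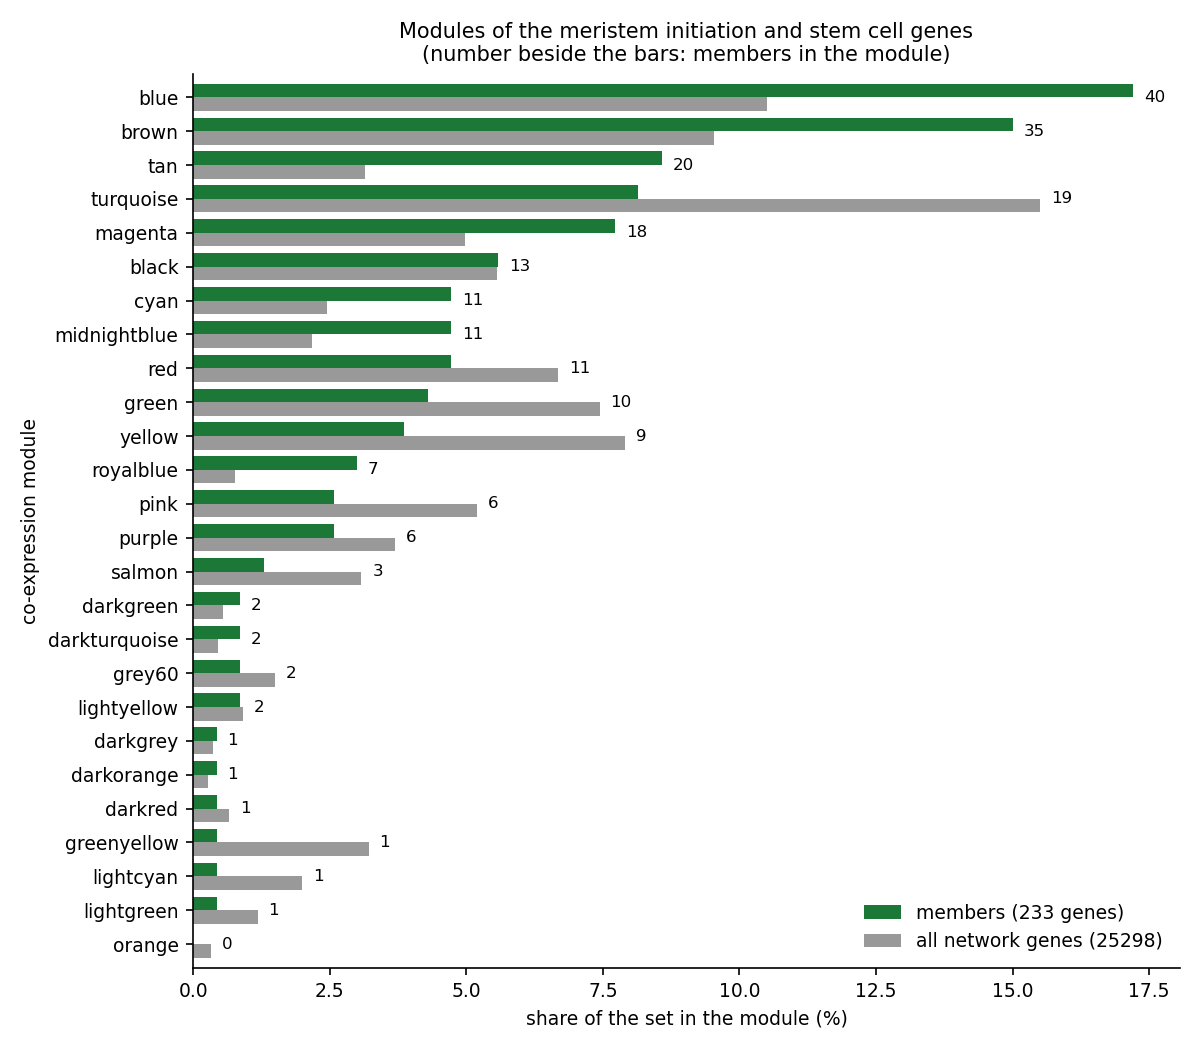
Share of the members (green, out of 233) and of all network genes (grey, out of 25298) in each co-expression module, in percent, with the number of members beside the bars. Blue, brown, tan, and magenta held larger shares of members than of network genes, and turquoise held 8.15% of members and 15.5% of network genes.

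A listed edge was more frequent among pairs of members than among all pairs of network genes. Of 27028 possible pairs of members, 4974 (18.4%) had a listed edge, against 13.6% of all gene pairs of the network. All network genes weighted to the members' own make-up by module pair gave 13.7%. Within modules, 1586 of 2271 member pairs were listed (69.8%), and the share of all gene pairs weighted in the same way was 58.5%. Between modules, 3388 of 24757 member pairs were listed (13.7%), and the weighted share of all gene pairs was 9.58%. Such a share is not particular to the members, as 94 genes of vernalization response had a listed edge in 19.4% of their own pairs, and 42 other genes of primary shoot apical meristem specification in 37.9%. Listed edges between members had a median weight of 0.0454, and all listed edges had a median of 0.0412.

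The density differed between modules. Of the 10 modules with at least 10 members, 8 had a higher listed share among member pairs than among all of their gene pairs. The largest excess was in midnightblue, with 43 of 55 member pairs (78.2%) against 47.6% of all pairs, and tan had 126 of 190 member pairs (66.3%) against 44.6%. Turquoise had 155 of 171 member pairs (90.6%) against 72.0%. Green and red were the exceptions, with 21 of 45 member pairs (46.7%) against 58.1% in green and 6 of 55 (10.9%) against 40.0% in red. Most pairs of red members thus had no listed edge, and both members with no listed edge to any other member were in red. These were Sevir.6G141400, with a small GTP-binding protein domain and 217 edges in all, and Sevir.9G444400, best hit *ESK1*, a xylan acetyltransferase of the cell wall, with 693 edges.

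**Figure D2:**
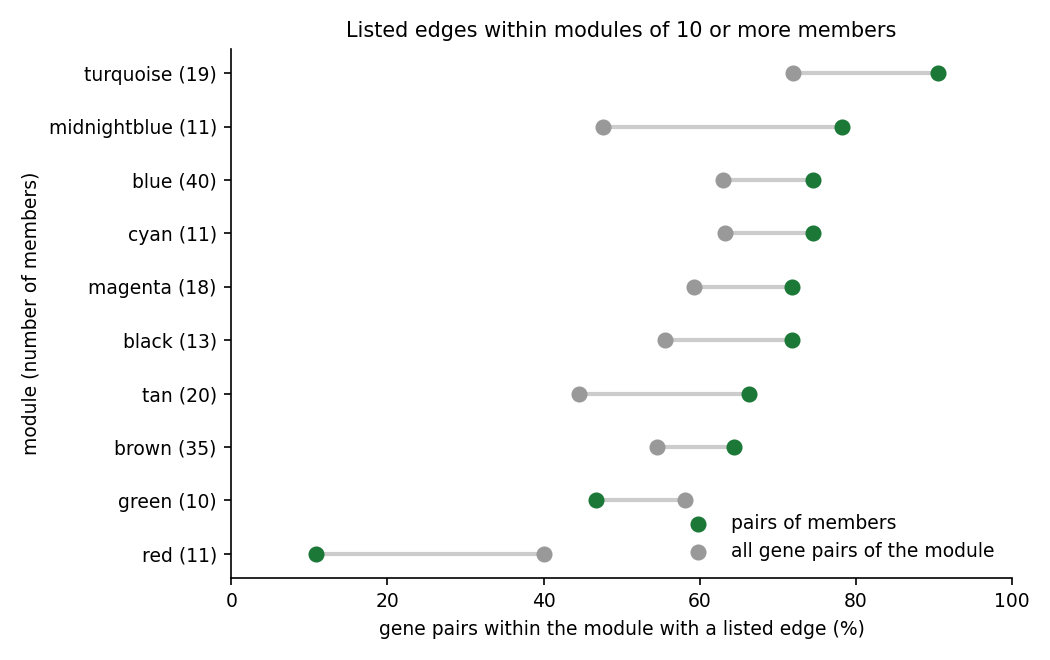
Percent of gene pairs within a module that had a listed edge, for pairs of members (green) and for all gene pairs (grey), in the 10 modules with at least 10 members. Green lies right of grey in 8 modules and left of it in green (46.7% against 58.1%) and red (10.9% against 40.0%).

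Across modules, the members formed blocks. Of the 209 member pairs between midnightblue and turquoise, 140 (67.0%) were listed, against 38.0% of all gene pairs between these modules. Cyan and turquoise members were joined in 131 of 209 pairs (62.7%), against 33.3%, and black and blue members in 269 of 520 pairs (51.7%), against 24.2%. Blue and brown, the modules with most members, were joined in 348 of 1400 member pairs (24.9%), against 8.67% of all gene pairs. Other pairs of modules had no such edge. None of the 760 member pairs between blue and turquoise, none of the 630 between brown and magenta, and none of the 360 between magenta and tan had a listed edge, and the shares of all gene pairs there were 0.360%, 0.716%, and 0.670%. An unlisted edge has a weight below the listed minimum, which need not be 0.

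Connectivity was measured as the sum of a gene's listed weights to genes of its own module, given as a percentile of that module, where the middle gene is at 50. The median member was at 58.6 (quartiles 30.1 and 80.5), and the median of the other 25065 network genes was 50.0. Of the 233 members, 36 (15.5%) were in the top 10% of their module, which by construction held 10.0% of all network genes, and 11 were in the bottom 10%. The median was 58.0 for meristem initiation and 62.6 for stem cell development. Members had a median of 3269 edges in all and 43 edges to other members, with a range of 0 to 93. For 118 of 233 members (50.6%), the module with the largest number of the gene's edges was its own, against 54.9% of the other network genes.

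The 5 members of highest percentile were a mixed group. Sevir.7G248200, annotated with small interfering RNA binding, ranked 1 of the 798 genes of tan. Sevir.6G056600, best hit *TOP1B* (a DNA topoisomerase), ranked 26 of 2668 in blue, and Sevir.1G385400, a gene annotated with small RNA binding, ranked 2 of 91 in darkgrey. Of the 4544 edges of Sevir.1G385400, only 86 (1.89%) went to genes of darkgrey, and 1452 went to blue. The others were both in brown (2411 genes), Sevir.9G421500, best hit *SPK1* (an activator of ROP GTPases), at rank 31 and Sevir.6G260100, best hit *SMC1* (a cohesin subunit), at rank 33.

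Receptors and signaling proteins were spread widely. The 21 members, mostly genes with a protein kinase domain, were in 11 modules, with a median percentile of 42.6, and 40 of their 210 pairs (19.0%) were listed. Genes matching the Arabidopsis CLAVATA pathway were in purple, blue, and black. Sevir.1G227500, best hit *CLV2* (a receptor-like protein without a kinase), and Sevir.5G444600, best hit *CRN* (its membrane-bound partner), were both in purple, at the percentiles 70.5 and 34.7, and were joined by an edge of 0.0400. The phosphatases that act downstream of CLAVATA receptors in Arabidopsis had best hits in Sevir.9G393100 (*POL*, black, percentile 50.9) and Sevir.1G284200 (*PLL1*, blue, percentile 52.8), which were joined at 0.0335. No edge joined the phosphatase genes to the *CLV2* and *CRN* best hits. *POL* reached 62 other members and *PLL1* 54, whereas *CLV2* reached 28 and *CRN* 30. Sevir.6G062400, best hit *PXY* (a receptor kinase of vascular stem cells), was in midnightblue at percentile 77.6, and its heaviest edge to another gene of the family was 0.106, to Sevir.6G170900 of the same module.

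The KNOX and BELL homeobox members had the highest median percentile of any family, 89.7. Of the 9 genes, 5 were in tan, 2 in royalblue, 1 in midnightblue, and 1 in turquoise, all 9 carried meristem initiation, and 20 of their 36 pairs (55.6%) were listed. *SvKn1* (Sevir.9G107600), a putative ortholog of maize *knotted1*, ranked 17 of 798 in tan. In the same module, Sevir.3G225700, best hit *PNY*, ranked 36, Sevir.2G029800, best hit *KNAT1*, ranked 43, and Sevir.5G386500, best hit *PNF*, ranked 83. *PNY* and *PNF* encode BELL partners of KNOX proteins in Arabidopsis. All pairs of the 5 tan genes were listed. *SvKn1* was joined to the *KNAT1* best hit at 0.129, to *PNY* at 0.114, to *PNF* at 0.0982, and to the nearby Sevir.9G107200 at 0.0784, and *PNY* and *PNF* were joined at 0.124. Sevir.9G107200 ranked 493 in tan. *SvKn1* and Sevir.9G107200 belong to the same family and lie close together by locus number, and how far reads were shared between such copies was not tested.

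The royalblue pair, Sevir.5G025700 (best hit *KNAT6*) and Sevir.3G050500, was joined at 0.0693 and had lighter edges to tan genes of the family, of 0.0234 to 0.0535. Sevir.5G025700 had only 425 edges in all, but 18 of them went to other members. It reached 7.76% of the other members and 1.62% of the rest of the network, the highest ratio among the members (4.78). The turquoise gene, Sevir.9G140700, and the midnightblue gene, Sevir.9G073300, were joined to each other at 0.0547 and to no tan or royalblue gene of the family. Sevir.9G140700 was instead joined to MADS-box genes of turquoise, at 0.162 to Sevir.9G494301 and at 0.125 to *SvMads5*.

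The 12 MADS-box members all carried stem cell development and none carried meristem initiation. They were in 7 modules, with the lowest median percentile of any family, 29.3, and 15 of their 66 pairs (22.7%) were listed. The *AP1/FUL-like* genes were in 3 modules. *SvFul2* (Sevir.2G006400) and *SvFul3* (Sevir.2G393300) were in brown, at the ranks 1946 and 1760 of 2411, *SvFul1* (Sevir.9G087300) was in cyan, at rank 427 of 621, and *SvFul4* (Sevir.3G374401) was in magenta, at rank 100 of 1260. No edge was listed between any pair of the 4 genes. The aligned coding sequences of the study show how close these genes are in sequence, and the first 90 bases of the alignment from the start codon of *SvFul2*, which encode the start of the MADS domain, are given for each, with capitals at the bases that differ from *SvFul2*.
SvFul2: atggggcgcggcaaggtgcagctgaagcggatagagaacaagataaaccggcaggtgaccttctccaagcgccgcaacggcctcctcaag
SvFul1: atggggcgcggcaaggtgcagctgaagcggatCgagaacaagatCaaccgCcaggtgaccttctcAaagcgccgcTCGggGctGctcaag
SvFul3: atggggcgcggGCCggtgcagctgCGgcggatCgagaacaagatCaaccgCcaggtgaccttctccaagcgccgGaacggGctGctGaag
SvFul4: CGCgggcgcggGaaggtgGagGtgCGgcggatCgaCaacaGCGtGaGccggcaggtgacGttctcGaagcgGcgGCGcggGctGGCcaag

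Of these 90 bases, 9 differed from *SvFul2* in *SvFul1*, 12 in *SvFul3*, and 25 in *SvFul4*. Over all aligned bases, *SvFul2* was 78.0% identical to *SvFul1* (747 bases), 64.3% to *SvFul3* (745 bases), and 53.8% to *SvFul4* (701 bases). The alignment names *SvFul4* by a locus that differs in its last digit from the one in the network, and the *SvFul4* row has no start codon at the first column. By locus name, *SvFul2* and *SvFul3* are on chromosome 2, *SvFul1* on chromosome 9, and *SvFul4* on chromosome 3. The pair most alike in sequence did not share the most network partners. *SvFul1* and *SvFul2* shared 59 network partners, 3.69% of those of *SvFul1* and 3.01% of those of *SvFul2*. *SvFul1* and *SvFul3*, which were 63.5% identical, shared 910 (56.8% of *SvFul1* and 30.4% of *SvFul3*), and *SvFul4* shared 0 partners with each of the other three.

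*SvFul2*, the gene lost in the mutant, had 1961 edges in all, and 52 of these went to other members. It reached 22.4% of the other members and 7.62% of the rest of the network, a ratio of 2.94, the fifth highest among the 233 members. Its partners were 14 of 25 small RNA genes, 12 of 19 chromatin genes, 5 of 9 KNOX and BELL genes, and 3 of 4 cytoskeleton genes, but none of the 11 other MADS-box genes and none of the 10 genes of auxin and vein patterning. The heaviest of these edges were 0.106 to Sevir.3G072400 (best hit *AGO1*), 0.0927 to the small RNA gene Sevir.3G120100, and 0.0836 to the *SMC1* best hit. The edge between *SvFul2* and *SvKn1* was 0.0436, and *SvFul3* was joined to *SvKn1* at 0.0435. *SvFul1* reached 28 members, among them 1 of 25 small RNA genes and 6 of 21 receptor and signaling genes.

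*SvFul4* reached 42 members, among them 4 of 11 other MADS-box genes and 4 of 6 AP2-type genes, but 0 of 9 KNOX and BELL genes and 0 of 19 chromatin genes. Over all genes, 0.67% of pairs between magenta and tan and 0.716% of those between magenta and brown were listed. Between magenta and blue, which held 6 of the chromatin genes, the share was 24.6%. *SvFul4* formed a group with Sevir.9G518400 (magenta), Sevir.1G335300 (green, best hit *SVP*), and Sevir.4G075400 (blue), all MADS-box genes, in which all pairs were joined at 0.0902 to 0.132. The other MADS-box members *SvMads5* (Sevir.4G060800), Sevir.2G277000 (best hit *SEP3*, a partner of other floral MADS-box proteins), and Sevir.9G494301 were in turquoise. Sevir.9G494301 was joined to the *SEP3* best hit at 0.0724 and to *SvMads5* at 0.0403, and no edge was listed between the *SEP3* best hit and *SvMads5*. *SvMads5* was also joined to *SvFul1* at 0.0345, and *SvFul1* shared 1564 of its partners (97.7%) with *SvMads5*. The yellow MADS-box member, Sevir.6G230500, had 1 edge to another member and was at percentile 1.20.

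Of the 6 AP2-type members, 3 were in magenta and were all joined to each other. *SvSid1* (Sevir.2G093800) and *SvIds1* (Sevir.9G034800), counterparts of maize genes of spikelet determinacy, ranked 140 and 831 of 1260 in magenta and were joined at 0.0549. *SvSid1* was joined to *SvFul4* at 0.103 and *SvIds1* to *SvFul4* at 0.0691. Neither had a listed edge to a KNOX or BELL member, of which 5 of 9 were in tan. Listed edges between magenta and tan were rare for all genes, at 0.67% of gene pairs. Sevir.9G073700, best hit *ANT* (a factor of organ growth), was in tan at percentile 80.5, and it reached 64 other members, a ratio to the rest of the network of 2.68. Sevir.5G421100, best hit *PLT2* (a factor of the root stem cell niche in Arabidopsis), was in red, with 4 edges to members.

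**Figure D3:**
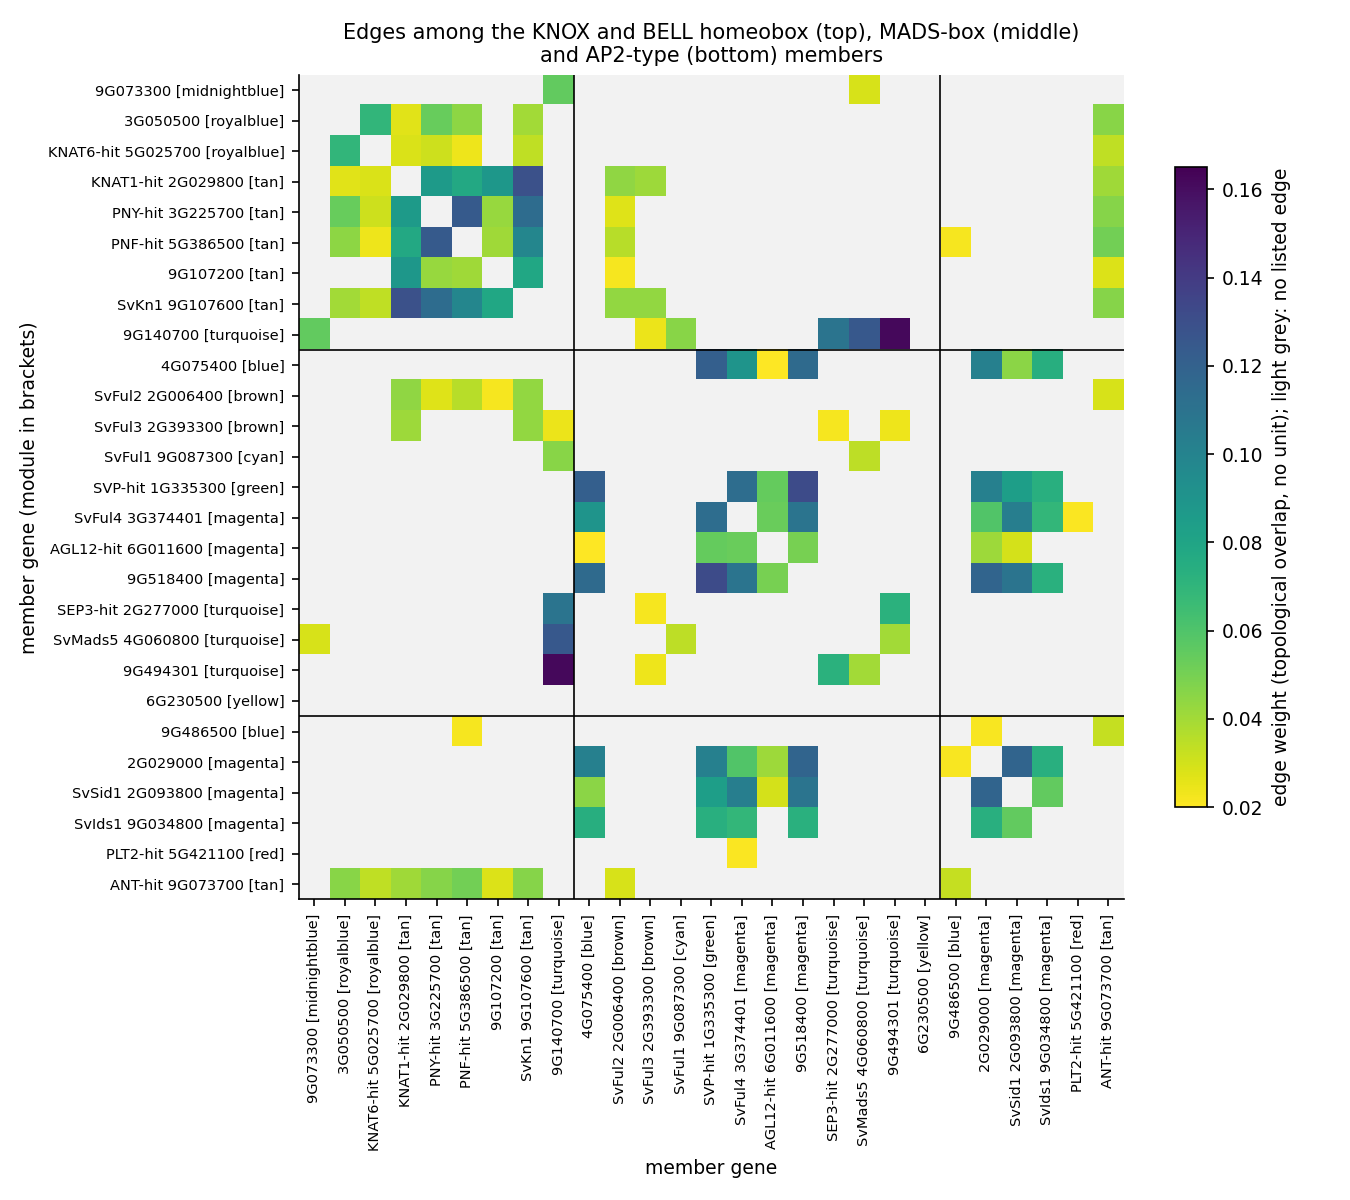
Weights of listed edges (topological overlap, no unit) among the 9 KNOX and BELL, 12 MADS-box, and 6 AP2-type members, with module in brackets. Light grey marks pairs with no listed edge and the diagonal. The tan homeobox genes form one block, the *SvFul4* group and the magenta AP2-type genes form another, and *SvFul2* is joined to the homeobox block (0.0436 to *SvKn1*) and to no MADS-box gene.

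Small RNA genes were the largest family, with 25 members in 11 modules, and 18 of them carried stem cell development. Their median percentile was 83.4, 9 of 25 were in the top 10% of their module, and 142 of 300 pairs (47.3%) were listed. Brown held 7, blue 6, and black, royalblue, and tan 2 each. The members included best hits of the AGO genes *AGO1*, *AGO4*, *AGO5*, *AGO7*, and *AGO10*, the Dicer genes *DCL1*, *DCL3*, and *DCL4*, the RNA-dependent RNA polymerases *RDR2*, *RDR3*, and *RDR6*, and *HEN1*, which methylates small RNAs. Some genes of the family, such as Sevir.7G248200 and Sevir.7G213000, had no best hit or protein domain in the GO annotation, so their place in it rests on other annotation. All 15 network genes annotated with small interfering RNA binding were members, and their median percentile was 90.5. Of the 17 network genes annotated with microRNA binding, 13 were members (median percentile 90.5) and 4 were not (median 39.5).

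The *AGO1* best hit, Sevir.3G072400, was at percentile 94.7 in brown and reached 89 other members. It was joined to Sevir.7G137100 (best hit *RDR2*, blue) at 0.208 and to Sevir.2G046600 (best hit *HEN1*, blue, percentile 69.0) at 0.174, both across modules. The gene with most edges to other members, 93, was Sevir.7G213000, a blue gene of the family at percentile 87.0. The *AGO10* best hit, Sevir.4G237200, whose Arabidopsis counterpart keeps shoot stem cells by holding a microRNA away from *AGO1*, was in cyan, at percentile 29.3 with 27 edges to members. Sevir.4G237200 had only 1260 edges in all. Its ratio of members reached to rest of the network reached was 2.37, against 1.69 for *AGO1* and 1.76 for Sevir.7G213000. The *DCL1* best hit, Sevir.9G565900, which makes microRNAs in Arabidopsis, was at percentile 31.9 in brown with 44 edges to members and a ratio of 2.11. The *AGO10* and *DCL1* best hits therefore lay low in connectivity percentile among genes of the family, but not in this ratio.

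Small RNA genes and chromatin genes were joined in 241 of 475 pairs (50.7%), and small RNA genes and KNOX and BELL genes in 75 of 225 (33.3%), against 18.4% over all member pairs. Listed shares within and between families were not weighted by module. Small RNA and chromatin genes were both most frequent in blue and brown, where 74.5% and 64.4% of member pairs within the module were listed. How far module placement accounts for the family shares was not tested. *SvKn1* itself was joined to 14 of the 25 small RNA genes, most heavily to the tan genes Sevir.2G069400 (0.135) and Sevir.7G248200 (0.121). The first of these was heavier than any edge of *SvKn1* to another homeobox member.

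The 10 genes of auxin and vein patterning were in 6 modules, 3 each in turquoise and yellow, with a median percentile of 58.3 and 13 of 45 pairs (28.9%) listed. Sevir.3G028900, best hit *MP* (an auxin response factor), was in turquoise at percentile 14.8 and was joined at 0.0683 to Sevir.2G280000, best hit *SFC* (a protein of vesicle transport in vein patterning). The heaviest edge of the group, 0.131, joined *SFC* and Sevir.4G275100, best hit *ARF6*.

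Chromatin genes were the most densely joined of the families with at least 5 members. Of 171 pairs among the 19 genes, 97 (56.7%) were listed, the median percentile was 74.1, and 11 of the 19 were in blue or brown. The cohesin genes, best hits *SMC1* and *SCC3* (Sevir.8G226600), were joined at 0.198 in brown. Sevir.3G367300, best hit *OBE2* (a PHD-finger protein of meristem maintenance), was in blue at percentile 75.4 and reached 85 other members. The cytoskeleton genes *SPK1* and Sevir.9G036500, best hit *SCAR2* (a subunit of the WAVE complex, which starts actin branches), were joined at 0.193 in brown, and chromatin and cytoskeleton genes were joined in 43 of 76 pairs (56.6%). The 11 NPH3-domain genes, related to a phototropism protein, were in 8 modules. Of their pairs, 11 of 55 (20.0%) were listed, close to the 18.4% over all member pairs. None of the 6 pairs of the 4 TBL cell wall genes was listed, but 6 pairs are too few to set a family apart.

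**Figure D4:**
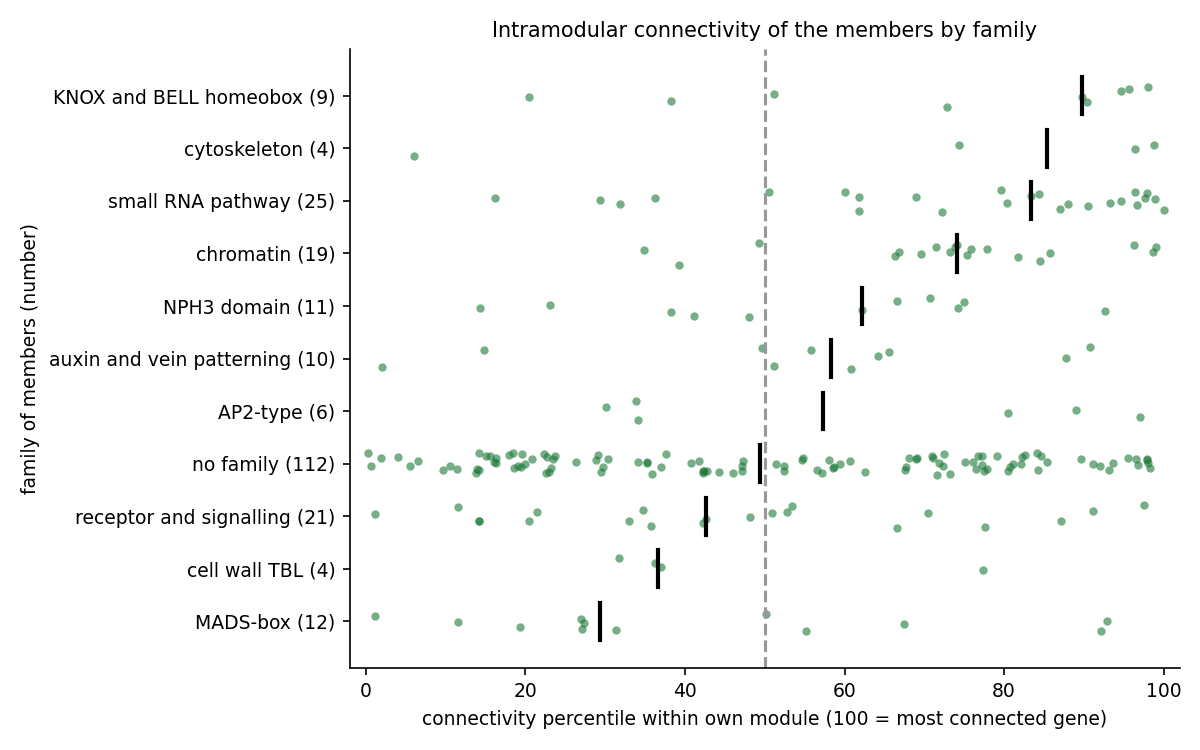
Connectivity percentile of each member within its own module, by family (number of genes in brackets). Black bars are medians and the dashed line is the middle gene of a module. Medians were 89.7 for KNOX and BELL genes, 83.4 for small RNA genes, 42.6 for receptor and signaling genes, and 29.3 for MADS-box genes.

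None of the 5 heaviest edges between members involved a KNOX or BELL, MADS-box, or AP2-type gene. The heaviest was 0.237, between Sevir.4G058100 and Sevir.9G408300 in blue, whose best hits encode the spliceosome protein PRP8 and a nucleoporin. The next were 0.226, between Sevir.9G408300 and the *RDR2* best hit, 0.215, between *SPK1* and *SMC1*, 0.214, between Sevir.9G575000 (best hit *ARP4*, an actin-related protein of chromatin complexes) and Sevir.9G408300, and 0.208, between *RDR2* and *AGO1*. Besides Sevir.7G213000 and *AGO1*, the members with most edges to others were *SMC1* (88), Sevir.5G013600, whose best hit is an aspartyl-tRNA synthetase (87), and Sevir.9G408300 (86). All 5 of these genes also had many edges in all, 5647 to 6408. Their ratios of members reached to rest of the network reached were 1.49 to 1.76, against a median of 1.31 over the members.

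The reach of a gene was its share of the other members joined to it by a listed edge, set beside its share of the rest of the network. The median member reached 18.5% of the other members and 12.8% of the rest, and the ratio was above 1 for 152 of 233 members (65.2%), against 45.8% of the other network genes. It was above 2 for 48 members (20.6%), against 10.2% of the other network genes. *SvKn1* reached 22.8% of members and 11.0% of the rest, and *SvFul4* reached 18.1% of members and 22.3% of the rest.

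**Figure D5:**
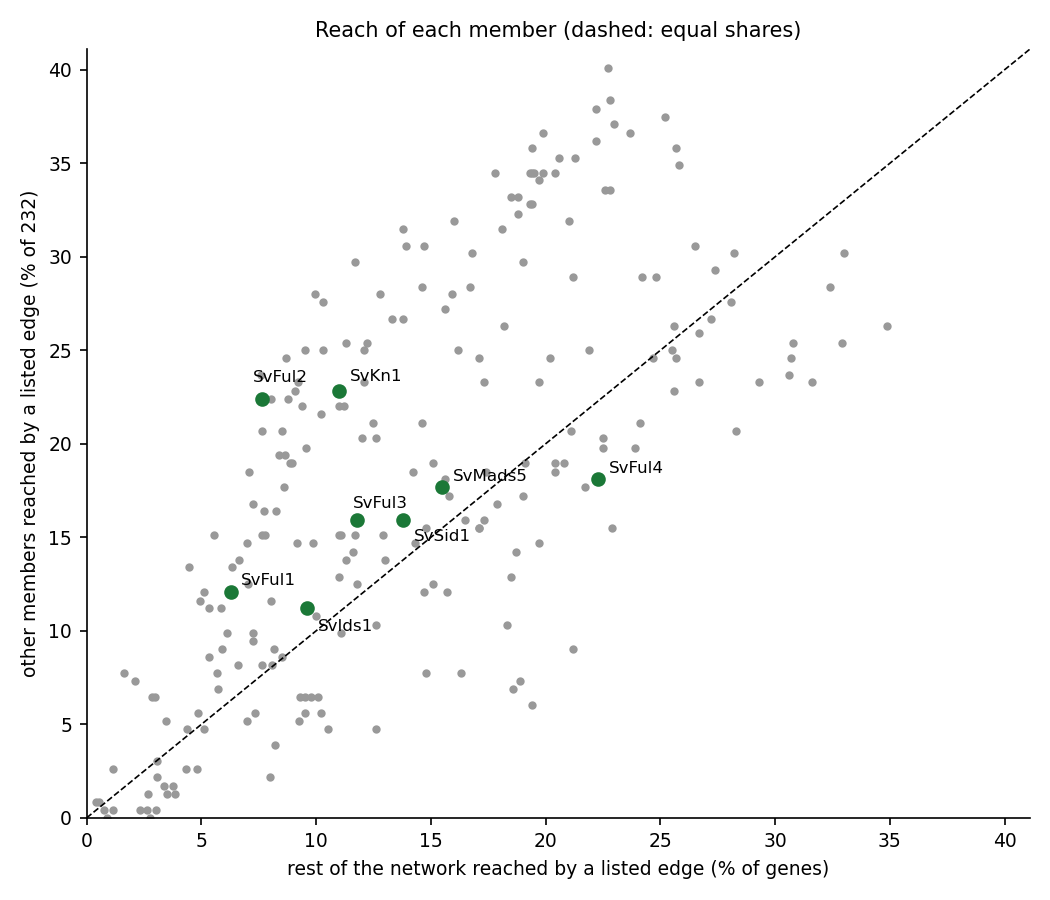
Percent of the 232 other members joined to each member by a listed edge (vertical axis) against percent of the rest of the network joined to it (horizontal axis). Green points are the members with *S. viridis* names and the dashed line marks equal shares. *SvFul2* (22.4% and 7.62%) and *SvKn1* (22.8% and 11.0%) lie above the line and *SvFul4* (18.1% and 22.3%) below it.

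Of 5 pairs of members with consecutive locus numbers, all 5 were split between modules, and 1 had a listed edge, Sevir.8G010700 and Sevir.8G010800 (best hit *RPT2*), at 0.0464. The others included the TBL genes Sevir.9G444900 in magenta and Sevir.9G445000 in darkgreen, and the genes Sevir.6G023700 in magenta and Sevir.6G023800 in royalblue, both of the small RNA family. Over all 27028 member pairs, only 2271 lay within a module and 18.4% were listed, so 5 pairs cannot tell neighbors from other members. *SvKn1* and the nearby Sevir.9G107200, whose numbers are not consecutive, were both in tan and joined at 0.0784.

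Members shared other annotations that the rule had not used. Determination of bilateral symmetry was carried by 142 members (60.9%), against 0.656% of network genes, and adaxial/abaxial polarity by 95 (40.8%), against 0.474%. Among the 77 stem cell development genes, 76 (98.7%) carried negative regulation of cell differentiation, and among the 165 meristem initiation genes 70 (42.4%) carried regulation of meristem growth. Terms of microRNA production were carried by 45 members (19.3%), against 0.597% of network genes. Members had a median of 26 terms and network genes a median of 11, so these shares describe the annotation and not expression.

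Other genes of the meristem pathways were joined to the members at shares close to or below the share among members, with the exception of primary shoot apical meristem specification. Of 56 network genes with that term, 14 were members, and the other 42 had a median percentile of 76.8 and a listed edge in 25.4% of pairs with members, against 18.4% among members. The 26 other genes of meristem maintenance had 17.3% and a median percentile of 55.0, and the 231 other genes of regulation of meristem growth had 15.4% and 52.6. For stem cell population maintenance (4 others) the share was 18.7%, for meristem structural organization (27 others) 16.7%, and for adaxial/abaxial polarity (25 others) 17.7%. As a background, the median network gene outside the members had a listed edge to 12.9% of members. The 94 genes of vernalization response, which the rule left out, had 18.5% and a median percentile of 60.6. Genes of green tissue had 10.4% with members for photosystem I and 7.74% for photosystem II, although their own pairs were listed in 32.2% and 43.0%, and 64 other genes of phloem or xylem histogenesis had 14.8%.

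A list of 105 Arabidopsis meristem regulators gave a best hit in 72 network genes, and 19 of these were members. The other 53 did not carry the terms of the rule or were dropped by it. The median percentile was 55.8 in the 19 members and 58.3 in the other 53, and the 53 had a listed edge in 18.5% of pairs with members, close to the 18.4% among the members themselves.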

How the data were processed

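Reads of 24 RNA libraries were trimmed with cutadapt and quantified with Salmon 0.13.0, per the submitters' processing notes, and the authors built a signed network from transformed wild-type counts with WGCNA. The deposited weight of an edge is a score for shared network neighbors (topological overlap), and the authors list edges from 0.02 upward. This minimum removes weak edges and can lower connectivity. Module and GO labels are the authors', and the GO table, made by an annotation pipeline, was used as assigned without its 678 rows marked NOT. No table has a column for a single sample, so depth per sample was not used and no test was made. The authors' comparisons were not used.

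Edges were counted and weights summed for each gene with Python 3.11.15, numpy 2.4.6, pandas 2.3.3, scipy 1.17.1, and pyarrow 21.0.0, and figures were drawn with matplotlib 3.10.9. The functions were tested on simulated data. A listed share is listed edges over possible pairs. Genes were named if their best hit was on the list of 105 meristem regulators, if the study names them, or if they were among the 5 of highest percentile, the 5 with most edges to members, the 5 heaviest edges, or those with no edge to a member. Further family members named in the text (such as Sevir.9G140700) were chosen after their values were seen. The result for 1 gene that the rule names is not reported here. Members, lists, and families were chosen with earlier results of these data known, and the families were made after membership was known. Families were set by best hits, protein domains, GO terms, and the study's gene annotation. Of the members, 112 had no family. The RefSeq table (assembly Setaria_viridis_v4.0) could not be matched by locus, so no coordinates are given. Alternatives changed the terms, the measure of connectivity, and the minimum weight.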

Additional observations from a re-analysis of the deposited data

How the results depend on the processing

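Of 22 alternatives, 14 stayed within the set limits (1.5 times for a count, the 95% interval otherwise) and 8 moved. This tally does not measure robustness, because some alternatives left the members as they were. Keeping the rows marked NOT gave 233 members again. With stem cell development alone, the members in the network fell to 77 genes, blue held 17 of them, and the share of member pairs with a listed edge was 23.9%. With meristem initiation alone, blue held 25 members and the listed share was 17.1%. Keeping only edges with 2 times the lowest listed weight or more gave a listed share of 10.5% of member pairs, against 7.05% of all gene pairs. Pairs within 1 module gave 69.8% and pairs between modules 13.7%. Fewer genes with 1 term alone lower the counts, and fewer edges or a subset of pairs change the share by construction, but the cause of the shifts in the share with 1 term alone was not tested. The median percentile of the members lay between 54.4 (weights to all modules) and 62.6 (stem cell development alone), and 36 to 38 members were in the top 10% of their module. Keeping 1 member for each Arabidopsis best hit removed no gene, since the 132 best hits were distinct. No paired analysis was possible because no table has columns for single samples, and for the same reason no library could be left out. Pairs that share a gene are not independent, so the interval of the listed share is too narrow. No interval used here, including that of the median percentile, rests on replicate libraries, because the network is 1 matrix. The network does not give the levels of the members or their values in *ful2*, and its edges depend on which stages were sampled. The paper gives different days for this study and the earlier one, so stage and study cannot be told apart in the edges.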
